A study of Sus scrofa with 12 samples.

Results

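The 5 genes described here are ATF4, PSAT1, CHAC1, SESN2 and ASNSD1, members or neighbours of the transcriptional response to amino acid shortage. They were picked by symbol from a table of 30461 gene rows. Each symbol stood on a single row, and all 5 passed the filter on low counts, as did 14070 genes in all. The RNA came from pig (Sus scrofa) oviduct epithelial cells and was measured in 12 libraries by 3′ mRNA sequencing, which counts polyadenylated transcripts from their 3′ ends. Fresh cells (4 libraries) were scraped from the oviduct as single cells. Spheroids, rounded clusters that cells form in culture, were made in DMEM/F12 (4 libraries, whose names carry FBS) or in a medium labelled Incubation Medium (4 libraries, whose names carry Diff). The labels give no composition for either medium, no strain, age or cycle stage of the animals, no time in culture and no statement that replicates came from separate animals, so the p-values below measure only the spread between these libraries. The 5 genes were proposed with results on the same 12 libraries in view. Their differences between groups are therefore given as a description, with no test. The lists of other pathway genes were also drawn up with earlier results on these libraries known. Their adjusted p-values come from the fit over all tested genes, and their counts are not independent evidence of a direction.

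Cells that lack an amino acid, or whose endoplasmic reticulum is overloaded with unfolded protein, phosphorylate the translation factor eIF2. General translation then slows while the mRNA of ATF4, a bZIP transcription factor, is translated more efficiently, so the amount of ATF4 mRNA need not follow the amount of ATF4 protein. ATF4 pairs with C/EBP factors and switches on genes for amino acid synthesis, amino acid uptake and tRNA charging. PSAT1 makes phosphoserine on the route from glycolysis to serine. CHAC1 breaks down glutathione, SESN2 (sestrin 2) senses leucine and restrains the growth kinase complex mTORC1, and ASNSD1 carries a domain related to asparagine synthetase. Oviduct epithelium is a lining of secretory and ciliated cells.

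Gene counts per library ranged from 5045187 to 6026881 in fresh cells, from 7583553 to 8068187 in DMEM/F12 spheroids and from 7585780 to 8603774 in incubation medium spheroids. EPCAM, which marks epithelium, stood at 904 ± 112 CPM (SD, n = 4) before culture, and the spheroids held 628 ± 125 with DMEM/F12 and 715 ± 148 with incubation medium. CPM here means counts scaled to a common library total after TMM, a correction for differences in library composition. The oviduct glycoprotein gene OVGP1 averaged 22241, 400.0 and 471 CPM in the same order, the keratin gene KRT18 242, 425 and 719, and FOXJ1, which drives ciliated cell formation, 453, 88.6 and 67.5. The junction genes CDH1 and CLDN4 were highest in DMEM/F12, at 399, 1212 and 606 CPM and at 1656, 2720 and 1011 CPM. Of 10 epithelial symbols 7 had a row, on 8 rows in all. These rows summed to 20730 to 30370, 6407 to 7634 and 4397 to 6980 CPM, with most of the fresh cell sum from OVGP1. Against fresh cells 4 of the 7 symbols were called higher and 3 lower in DMEM/F12, and 3 higher and 3 lower in incubation medium. That is 100% and 85.7% called, where 70.7% and 71.7% of all tested genes were. Between the media 1 of the 7 symbols was called higher in incubation medium and 2 lower. Each symbol was taken by its first row. Of 10 stromal and smooth muscle markers 7 had a row, and their summed level was 253 to 415, 1074 to 1223 and 233 to 542 CPM in that order, most of it from TAGLN. The collagen genes differed in pattern, with COL1A1 at 31.1, 21.9 and 3.44 CPM, COL1A2 at 18.9, 2.03 and 4.42 and COL3A1 at 24.1, 0.574 and 0.358. Leukocyte markers (3 of 7 with a row) summed to 444 to 491, 412 to 477 and 498 to 599 CPM, most of it from CD79A, with PTPRC at 7.01, 2.54 and 1.21. Endothelial markers (5 of 5 with a row) summed to 41.6 to 57.4, 136 to 252 and 91.2 to 148 CPM, most of it in the spheroids from CDH5 (11.4, 108 and 43.0) and KDR (20.9, 74.1 and 60.6), while PECAM1 averaged 15.1, 7.91 and 8.05. VWF, which defines endothelium, was at 0 in every fresh cell and DMEM/F12 library, and the muscle marker DES was at 0 in every fresh cell library. Of 5 red blood cell markers only HBM had a row, and it stayed at or under 0.196 CPM. Whether shares of other cell types had a part in the results below was not tested. In bulk libraries fewer cells of a type and less RNA per cell cannot be told apart.

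All 5 genes were higher in incubation medium spheroids than in DMEM/F12 spheroids, and for each of them the 4 libraries of one medium lay clear of the 4 of the other. Against fresh cells the genes went separate ways. PSAT1 and ASNSD1 were below the fresh cells in DMEM/F12 and above them in incubation medium, CHAC1 and SESN2 had higher means in both media, and ATF4 had a lower mean in DMEM/F12 and about the fresh cell mean in incubation medium.

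**Figure D1:**
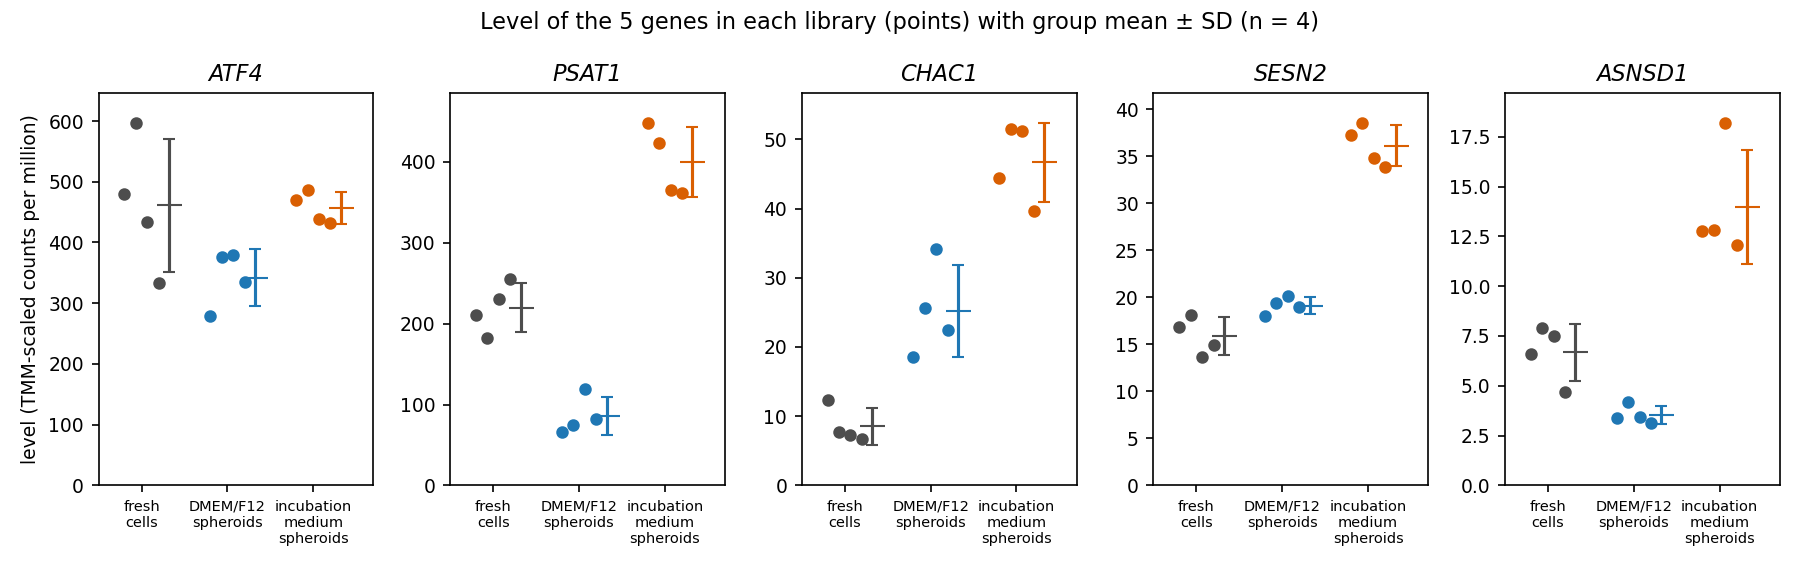
Level of ATF4, PSAT1, CHAC1, SESN2 and ASNSD1 in TMM-scaled CPM (vertical axes, each from 0) in fresh cells, DMEM/F12 spheroids and incubation medium spheroids (horizontal axis). Points are the 4 libraries of a group in the order of their replicate numbers, and the bar beside them is the mean ± SD. In each panel the incubation medium points lie above the DMEM/F12 points, and only for ATF4 do they fall within the range of the fresh cells.

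ATF4 (ENSSSCG00025025156), the transcription factor that gives the response its name, was the most deeply counted of the 5, with 1698 to 3937 counts per library. Replicates 1 to 4 of the fresh cells stood at 480.4, 598, 435 and 333 CPM. DMEM/F12 spheroids stood at 279, 376, 380 and 335 CPM, and incubation medium spheroids at 469.7, 487, 439 and 432 CPM. The fresh cells spread most widely, and their range enclosed every incubation medium library and 3 of the 4 DMEM/F12 libraries. The group means were 461 ± 110 CPM in fresh cells (SD, n = 4), 342 ± 47.0 in DMEM/F12 and 457 ± 25.7 in incubation medium. Incubation medium exceeded DMEM/F12 by a log2 fold change of 0.42 (SE 0.15), with every incubation medium library above every DMEM/F12 library. The log2 fold change of DMEM/F12 against fresh cells was -0.43 (SE 0.15), and it was -0.28 without fresh cell replicate 2, the highest library. Against fresh cells incubation medium stood at -0.01 (SE 0.15), a value whose sign changed with several settings. DMEM/F12 had the lowest mean and lay clear of incubation medium, but it overlapped the fresh cells. Fresh cells and incubation medium could not be ordered beyond their spread.

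PSAT1 (ENSSSCG00025038073), the phosphoserine aminotransferase of serine synthesis, had the widest difference between the media. Its fresh cell libraries held 211, 183, 231 and 255 CPM. The DMEM/F12 libraries held 66.2, 74.2, 119 and 82.0 CPM, and the incubation medium libraries 449, 424, 366 and 361 CPM. The 3 groups formed separate bands, with DMEM/F12 lowest, fresh cells between and incubation medium highest. Means were 220 ± 30.6 CPM in fresh cells (SD, n = 4), 85.4 ± 23.4 in DMEM/F12 and 399.7 ± 43.3 in incubation medium. The log2 fold change was -1.36 (SE 0.16) for DMEM/F12 against fresh cells and 0.86 (SE 0.16) for incubation medium against fresh cells. Between the media it was 2.23 (SE 0.17), or 4.69 times more in incubation medium. Only 1 library held a count that was not whole.

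CHAC1 (ENSSSCG00025015663), which encodes a glutathione-degrading enzyme, was lowest in fresh cells, higher in DMEM/F12 and highest in incubation medium. Fresh cells held 12.4, 7.71, 7.29 and 6.66 CPM, from only 34 to 71 counts per library. DMEM/F12 spheroids held 18.5, 25.7, 34.1 and 22.5 CPM, and incubation medium spheroids 44.4, 51.5, 51.2 and 39.6 CPM. No library of a group overlapped those of another. Fresh cell replicate 1 and DMEM/F12 replicate 1 were the libraries that came nearest to each other, at 12.4 and 18.5 CPM. The means were 8.51 ± 2.60 CPM (SD, n = 4), 25.2 ± 6.65 and 46.7 ± 5.74. Against fresh cells the log2 fold change was 1.55 (SE 0.21) in DMEM/F12 and 2.45 (SE 0.21) in incubation medium, and between the media it was 0.89 (SE 0.18). Of the 5 genes CHAC1 had the largest fold change against fresh cells in incubation medium, at 5.45 times.

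SESN2 (ENSSSCG00025027203), the leucine-sensing sestrin, had little spread within its groups. The fresh cell libraries were at 16.9, 18.1, 13.6 and 14.9 CPM and the DMEM/F12 libraries at 18.0, 19.4, 20.1 and 19.0 CPM. The incubation medium libraries were at 37.2, 38.6, 34.8 and 33.9 CPM. DMEM/F12 and fresh cells met at 18.0 and 18.1 CPM, so these neighbours in the order of levels overlapped, while incubation medium lay far above both. Means were 15.9 ± 2.00 CPM in fresh cells (SD, n = 4), 19.1 ± 0.882 in DMEM/F12 and 36.1 ± 2.16 in incubation medium. The log2 fold change was 0.27 (SE 0.10) for DMEM/F12 against fresh cells. Incubation medium stood 1.18 (SE 0.10) above fresh cells and 0.92 (SE 0.10) above DMEM/F12. The coefficient of variation of SESN2 within a group was 12.6% in fresh cells, 4.61% in DMEM/F12 and 5.99% in incubation medium, where the median over all tested genes was 14.0%, 13.0% and 14.1%.

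ASNSD1 (ENSSSCG00025030723), with its asparagine synthetase-like domain, was the least counted of the 5, with 24 to 147.5 counts per library. The fresh cells held 6.61, 7.89, 7.48 and 4.70 CPM. DMEM/F12 spheroids held 3.41, 4.18, 3.44 and 3.12 CPM, and incubation medium spheroids 12.8, 12.8, 18.2 and 12.1 CPM. The order of the groups was that of PSAT1, with no overlap, although the lowest fresh cell library (4.70) and the highest DMEM/F12 library (4.18) came close. Means were 6.67 ± 1.42 CPM in fresh cells (SD, n = 4), 3.54 ± 0.453 in DMEM/F12 and 14.0 ± 2.85 in incubation medium. The log2 fold change was -0.91 (SE 0.21) for DMEM/F12 against fresh cells, 1.06 (SE 0.19) for incubation medium against fresh cells and 1.98 (SE 0.19) between the media. In incubation medium, replicate 3 stood apart from the other libraries, which lay between 12.1 and 12.8 CPM.

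The counts of ASNSD1 were shared with another row of the table. They ended in a fraction of 0.5 in 8 of 12 libraries, and of all gene rows only 1 had the same fractions in all 12. That row, ENSSSCG00025030922, is annotated as protein coding and has no symbol. Its counts were 34.5, 43.5, 36.5 and 24 in fresh cells, where those of ASNSD1 were 38.5, 44.5, 39.5 and 24. In incubation medium it held 96, 93, 141.5 and 84.5 against 107, 96, 147.5 and 89.5 for ASNSD1. The unnamed row never exceeded ASNSD1, fell short of it by 0 to 11 counts, and held 47.3 to 50% of their sum. The level printed for ASNSD1 is therefore uncertain, since its reads cannot be told apart from those of the unnamed row. With the counts of both rows added as a single feature, the log2 fold changes were -0.90, 1.05 and 1.95 in the order above. Because the rows held nearly equal counts in every library, these values had to lie near those of ASNSD1. They do not settle which row the reads belong to. ATF4, CHAC1 and SESN2 had whole counts in all 12 libraries.

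**Figure D2:**
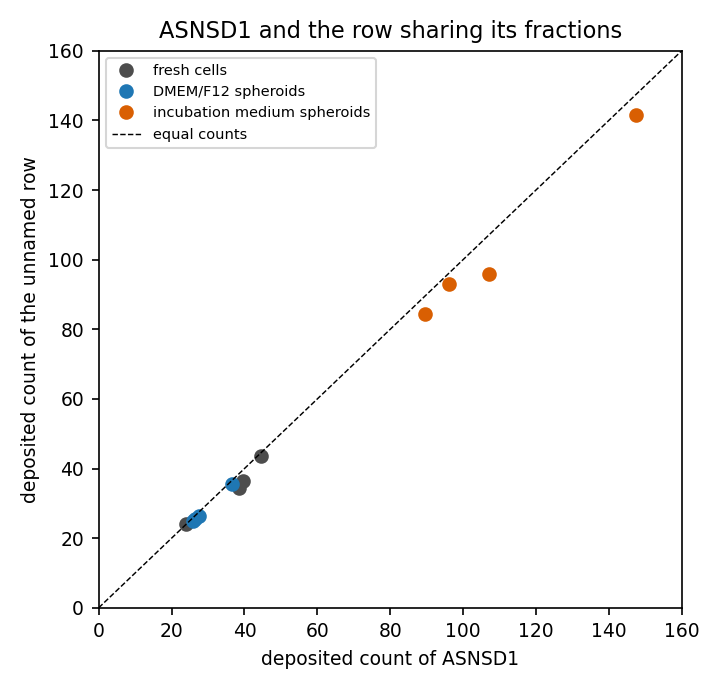
Deposited count of ASNSD1 (horizontal axis) against that of the unnamed row with the same fractional counts (vertical axis), 1 point per library, coloured by group, with a dashed line where the counts are equal. All 12 points lie on or just under the line, by 0 to 11 counts.

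Setting the 5 genes side by side, the DMEM/F12 and fresh cell libraries did not overlap for 3 of the 5, with CHAC1 higher and PSAT1 and ASNSD1 lower in DMEM/F12. Over all tested genes 65.4% did not overlap in that comparison, 32.4% higher and 32.9% lower. For incubation medium against fresh cells 4 of the 5 did not overlap, all higher in the spheroids, where 64.9% of tested genes did not overlap, 32.4% higher and 32.5% lower. Between the media 5 of the 5 did not overlap and all were higher in incubation medium, where 26.9% of tested genes did not overlap, 13.9% higher and 13.0% lower. These counts describe genes that were chosen with the values known, and both comparisons with fresh cells rest on the same 4 fresh cell libraries. Replicate numbers marked libraries that deviated together, so differences were also taken within each number. Between the media all 5 genes were higher in incubation medium in 4 of 4 such pairs. The log2 differences within pairs ran from 0.21 to 0.75 for ATF4, from 1.62 to 2.76 for PSAT1, from 0.58 to 1.25 for CHAC1, from 0.78 to 1.04 for SESN2 and from 1.55 to 2.31 for ASNSD1. For SESN2 in DMEM/F12 against fresh cells, whose groups overlapped, the 4 pairs all pointed upward, by 0.09 to 0.55. For ATF4 in the same comparison 3 pairs pointed downward and the fourth was at 0.01.

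**Figure D3:**
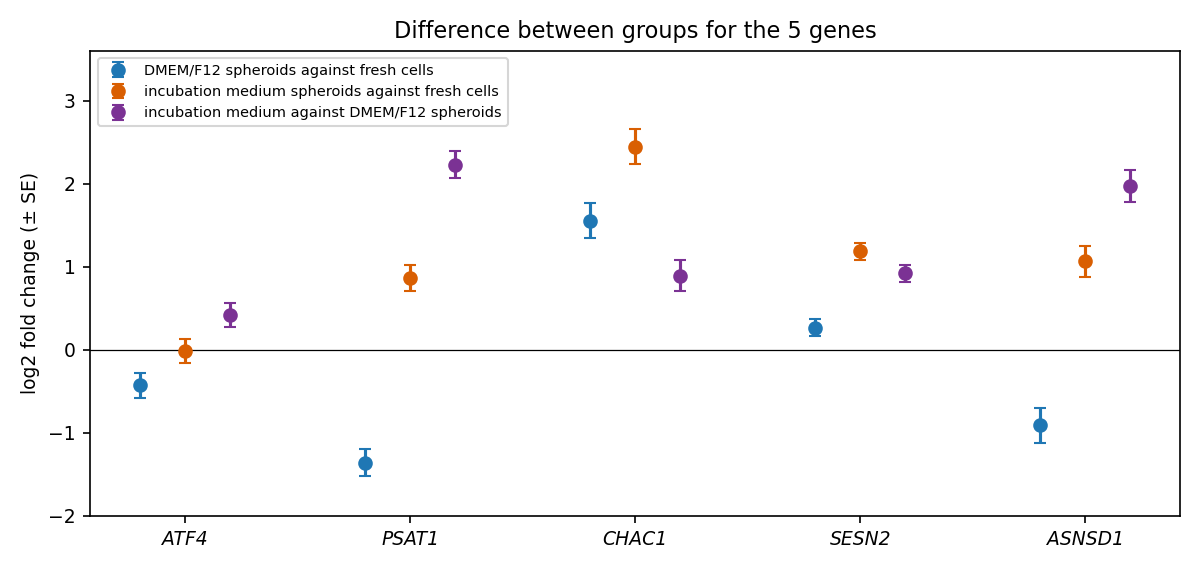
Log2 fold change (vertical axis) of each of the 5 genes (horizontal axis) in the 3 comparisons, shown as points with bars of ± 1 SE from the fit of all 12 libraries. The points for incubation medium against DMEM/F12 all lie above 0, from 0.42 for ATF4 to 2.23 for PSAT1, while the points against fresh cells fall on both sides of 0.

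Likeness of pattern was measured as the root mean square difference between genes in log2 CPM over the 12 libraries, after each gene was centred on its own mean. Within the group of 5, PSAT1 and ASNSD1 were the nearest pair, at 0.44, and PSAT1 and CHAC1 the farthest, at 1.23. Among 7074 other named genes with at least 10 CPM, the nearest to CHAC1 were the methionyl-tRNA synthetase MARS1 (0.26), the glycine transporter SLC6A9 (0.26) and the tyrosyl-tRNA synthetase YARS1 (0.26), where the median gene was at 1.02. MARS1 averaged 17.3 CPM in fresh cells, 58.4 in DMEM/F12 and 82.7 in incubation medium. The nearest to ASNSD1 were GCLC (0.29), RAC2 (0.32) and SLC39A10 (0.33), and those to PSAT1 were SLC39A10 (0.50), P3H2 (0.51) and RAC2 (0.52), at medians of 0.88 and 1.03. PSAT1 thus had no neighbour as near as the other 4 genes had. For SESN2 the nearest were DGCR6L (0.13), APEX1 (0.14) and ANKS6 (0.14), with a median of 0.57. For ATF4 they were STIP1 (0.14), ZNF639 (0.16) and EEF1D (0.17), with a median of 0.46.

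The other genes of the pathway came from 9 lists with 118 symbols, of which 87 had a row and 85 were tested. ASNS, PHGDH, SHMT2, TRIB3, EIF2AK3 and DDIT4 are among the 31 whose symbol stood on no row, and these 6 were not analysed here. Between the media 35 of the 85 genes were called higher in incubation medium and 9 lower (edgeR, Benjamini-Hochberg adjusted p under 0.05). That is 51.8% called, where 25.0% of all tested genes were called. The higher share was 41.2%, against 12.7% of all tested genes, and the lower share 10.6%, against 12.3%. Since the lists were not chosen independently of these libraries, these shares describe the listed genes and test nothing about the pathway. The median log2 fold change of the 85 genes was 0.24, and that of all tested genes 0.00. In DMEM/F12 against fresh cells 37 were called higher and 21 lower (68.2%, where 70.7% of all tested genes passed, 35.1% upward and 35.7% downward). In incubation medium against fresh cells 46 were called higher and 24 lower (82.4%, where 71.7% of all tested genes passed, 35.8% upward and 35.8% downward). When only genes with whole counts were tested, 26 of the pathway genes remained in the fit, and 11 of them were called higher and 0 lower between the media. Of all 5935 genes in that fit 676 were called higher and 665 lower.

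**Figure D4:**
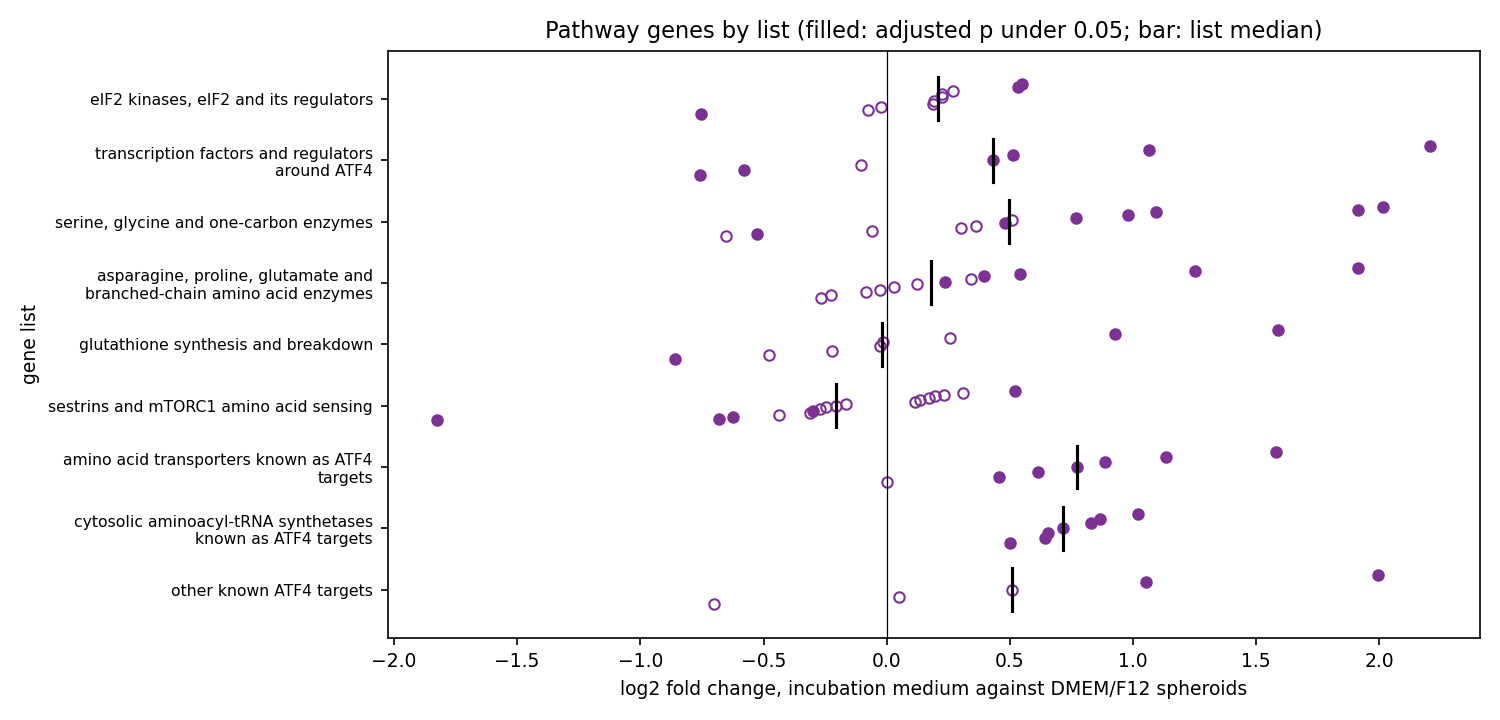
Log2 fold change between incubation medium and DMEM/F12 spheroids (horizontal axis) of the tested genes of the 9 pathway lists (rows). Filled points passed the adjusted p threshold of 0.05, open points did not, and black bars are list medians. All 7 tRNA synthetase genes and 6 of 7 transporter genes are filled on the right of 0, while filled points of the sestrin and mTORC1 list lie mostly on the left.

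Upstream of ATF4, 2 of 10 tested genes of eIF2, its kinases and its regulators were called higher in incubation medium than in DMEM/F12 and 1 was called lower (PPP1R15A). That is 30% called, close to the 25.0% of all tested genes. PPP1R15A, which directs the phosphatase that resets eIF2, averaged 1381 ± 232 CPM in fresh cells (SD, n = 4), 158 ± 5.42 in DMEM/F12 and 93.8 ± 10.2 in incubation medium. Its log2 fold change was -3.13 (adjusted p = 1.01e-10) and -3.88 (adjusted p = 1.78e-11) against fresh cells and -0.75 between the media (adjusted p = 0.000354). The eIF2 subunit gene EIF2S1 was higher in both media than in fresh cells, at 59.8 ± 6.16 CPM in DMEM/F12 and 58.8 ± 7.20 in incubation medium where fresh cells had 23.9 ± 3.29 (adjusted p = 2.64e-07 at a log2 fold change of 1.32, and 3.11e-07 at 1.30). EIF2AK4, the kinase GCN2 that senses uncharged tRNA, was not called in any comparison, with means from 52.2 to 62.2 CPM. With replicate number as a block it was called lower in incubation medium than in fresh cells (log2 fold change -0.22, and -0.25 without the block).

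The transcription factors around ATF4 split. ATF3 averaged 3293 ± 740.5 CPM in fresh cells (SD, n = 4), 104 ± 2.74 in DMEM/F12 and 69.7 ± 6.92 in incubation medium (log2 fold change -4.98 and -5.56 against fresh cells, adjusted p = 7.53e-12 and 3.58e-12). It was also lower in incubation medium than in DMEM/F12 (-0.58, adjusted p = 0.00491), where all 5 members were higher. DDIT3, the stress factor CHOP, fell from 141 ± 35.6 CPM in fresh cells to 18.6 ± 1.63 in DMEM/F12 and 38.8 ± 7.63 in incubation medium, and was higher in incubation medium than in DMEM/F12 (log2 fold change 1.07, adjusted p = 0.000621). NUPR1, a stress-induced chromatin protein, rose from 282 ± 80.2 CPM to 3623 ± 1043 and 2144 ± 624 (log2 fold change 3.68 and 2.93, adjusted p = 4.08e-08 and 2.89e-07). Its difference between the media, -0.76 (adjusted p = 0.0413), was lost without any of 6 single libraries, namely DMEM/F12 replicate 1, 2 or 4 and incubation medium replicate 2, 3 or 4 (-0.61 to -0.81). ATF5, a relative of ATF4 singled out after its values were seen, averaged 5.08, 9.59 and 44.4 CPM in fresh cells, DMEM/F12 and incubation medium, and is given as a description, with no test. Of the 7 tested genes of this list 4 were called higher and 2 lower in incubation medium than in DMEM/F12. The share called was 85.7%, beside 25.0% of all tested genes.

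Fresh cells also held high levels of immediate early genes, which cells switch on quickly after many kinds of stimulus. Their 9 rows summed to 22840 to 31590 CPM in fresh cells, 612 to 747 in DMEM/F12 and 565 to 603 in incubation medium. Endoplasmic reticulum chaperones (8 of 11 with a row) summed to 4128 to 6844, 959 to 1037 and 1355 to 1486 CPM, and HSPA5 averaged 3277 ± 896, 299 ± 12.1 and 511 ± 47.6 CPM (SD, n = 4). These sums were highest in the fresh cells, where ATF3, DDIT3 and PPP1R15A were highest and CHAC1 lowest, and their part in the comparisons with fresh cells was not tested.

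Of the genes of serine, glycine and folate metabolism, 12 were tested and 6 were called higher in incubation medium than in DMEM/F12, with 1 lower. That is 58.3% called, where 25.0% of all tested genes were. PSPH, which makes serine from the product of PSAT1, averaged 12.6 ± 1.09 CPM in fresh cells, 27.8 ± 7.84 in DMEM/F12 and 59.1 ± 13.3 in incubation medium (SD, n = 4). It was thus higher than fresh cells in DMEM/F12 (log2 fold change 1.14, adjusted p = 0.000196), where PSAT1 had its lowest level, and higher again in incubation medium (1.09 between the media, adjusted p = 0.000675). The mitochondrial folate enzyme MTHFD2 averaged 5.18, 9.81 and 16.7 CPM (0.77 between the media, adjusted p = 0.00604). CBS, which joins serine and homocysteine, averaged 1.83, 7.13 and 26.9 CPM (1.91 between the media, adjusted p = 1.36e-05). CTH, the next enzyme towards cysteine, rose against fresh cells by 2.43 in DMEM/F12 (adjusted p = 1.93e-08) and 2.37 in incubation medium (adjusted p = 2.41e-08), with -0.06 between the media (adjusted p = 0.814).

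Among enzymes of other amino acids 12 were tested, and 5 were called higher in incubation medium than in DMEM/F12 and 0 lower. The share called was 41.7%, beside 25.0% of all tested genes. BCAT1, a branched-chain aminotransferase, averaged 5.17 ± 2.1 CPM in fresh cells, 14.6 ± 2.42 in DMEM/F12 and 54.8 ± 19.0 in incubation medium (SD, n = 4; log2 fold change 1.91 between the media, adjusted p = 0.000156). Glutamate dehydrogenase GLUD1 rose from 128 ± 10.8 CPM to 664 ± 49.5 and 626 ± 19.6 (log2 fold change 2.37 and 2.29, adjusted p = 4.42e-11 and 5.31e-11), and its media values differed by -0.08 (adjusted p = 0.476). In the glutathione list, 2 of 8 genes were called higher and 1 lower between the media (37.5% called, beside 25.0% of all tested genes). The catalytic subunit gene GCLC, one of those nearest in pattern to ASNSD1, averaged 21.5, 17.4 and 52.4 CPM. GCLM, the modifier subunit gene of the same enzyme, averaged 15.5, 25.7 and 25.4 CPM, was called higher in both media than in fresh cells (adjusted p = 0.0043 and 0.00488) and differed by -0.01 between them (adjusted p = 0.967). CHAC2, the paralog of CHAC1, was low in all groups, at 3.89 ± 1.40 CPM in fresh cells, 2.42 ± 0.79 in DMEM/F12 and 1.74 ± 0.826 in incubation medium. Its decline in incubation medium (-1.15, adjusted p = 0.0153) was not called without fresh cell replicate 1 (-0.92). GGT7 fell from 16.3 ± 0.884 CPM to 8.23 ± 0.931 and 7.07 ± 2.31 (adjusted p = 0.00037 and 6.89e-05).

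In the sestrin and mTORC1 list, which SESN2 belongs to by function, 12 of 17 tested genes were not called between the media. Another 1 was called higher and 4 lower in incubation medium than in DMEM/F12 (29.4% called, close to the 25.0% of all tested genes). In incubation medium against fresh cells 6 were called higher and 9 lower (88.2%, where 71.7% of all tested genes were called). SESN1 averaged 15.0 ± 1.88 CPM in fresh cells, 7.79 ± 1.47 in DMEM/F12 and 5.03 ± 0.613 in incubation medium (SD, n = 4; -0.94 and -1.57 against fresh cells, adjusted p = 0.00011 and 1.19e-06). Between the media SESN1 was lower in incubation medium (-0.63, adjusted p = 0.0148), a call lost without DMEM/F12 replicate 1 (-0.49). SESN3 averaged 99.1 ± 21.7, 40.8 ± 10.1 and 50.8 ± 28.7 CPM and was called lower in both media than in fresh cells (adjusted p = 0.00181 and 0.0104). CASTOR2, a paralog of the arginine sensor gene CASTOR1, was highest in DMEM/F12, at 35.2 ± 3.27 CPM. Fresh cells held 5.20 ± 0.63 CPM and incubation medium 9.88 ± 2.48 (-1.82 between the media, adjusted p = 3.84e-06). EIF4EBP1, a translation repressor downstream of mTORC1, rose from 20.2 ± 2.23 CPM to 177 ± 39.2 and 253 ± 31.1 (3.13 and 3.65 against fresh cells, adjusted p = 1.08e-09 and 2.98e-10), though its counts were not whole in 8 of 12 libraries.

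Among amino acid transporters known as ATF4 targets, 6 of 7 were called higher in incubation medium than in DMEM/F12 and 0 lower. That is 85.7% called, where 25.0% of all tested genes were. The glutamine transporter SLC1A5 averaged 33.1 ± 3.43 CPM in fresh cells, 96.1 ± 18.8 in DMEM/F12 and 287 ± 30.1 in incubation medium (SD, n = 4; 1.58 between the media, adjusted p = 2.94e-06). The glycine transporter SLC6A9 averaged 8.89, 27.9 and 42.7 CPM. Its media difference (0.62, adjusted p = 0.0242) was not called without DMEM/F12 replicate 4 (0.52), incubation medium replicate 1 (0.60) or incubation medium replicate 2 (0.56). SLC7A11, which imports cystine for glutathione, averaged 25.7 ± 6.71, 11.5 ± 3.36 and 19.7 ± 6.93 CPM, highest in fresh cells where CHAC1 was lowest. It was called higher in incubation medium than in DMEM/F12 (0.77, adjusted p = 0.0428). That call was lost with library totals in place of TMM (0.68), with only the 8 libraries compared (0.77) and without any of 5 single libraries, namely fresh cell replicate 1, DMEM/F12 replicate 2 or 4 and incubation medium replicate 1 or 3 (0.49 to 0.83, lowest without incubation medium replicate 1). Against fresh cells it was lower in DMEM/F12 (-1.16, adjusted p = 0.0012) and was not called in incubation medium (-0.39, adjusted p = 0.185), where it was called with replicate number as a block (-0.40) and without incubation medium replicate 1 (-0.65).

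All 7 tested genes for cytosolic tRNA synthetases were called higher in incubation medium than in DMEM/F12, and all 7 were called higher in each medium than in fresh cells. Of all tested genes 12.7% were called higher between the media, and 35.1% (DMEM/F12) and 35.8% (incubation medium) against fresh cells. The median log2 fold change of the 7 synthetase genes against fresh cells was 0.94 in DMEM/F12 and 1.77 in incubation medium. Between the media it was 0.72. Glycyl-tRNA synthetase GARS1 averaged 28.8 ± 5.50 CPM in fresh cells, 162 ± 30.1 in DMEM/F12 and 329 ± 31.0 in incubation medium (SD, n = 4; 1.02 between the media, adjusted p = 0.000127). YARS1 averaged 7.10, 22.7 and 41.4 CPM (0.87 between the media, adjusted p = 0.00362). Of 5 other known ATF4 targets, 2 were called higher in incubation medium than in DMEM/F12 and 0 lower (40%, beside 25.0% of all tested genes). Genes of the lists above are not counted among these 5. Between the media the eIF2 list had 2 higher and 1 lower (PPP1R15A). The transcription factor list had 4 higher and 2 lower (ATF3 and NUPR1). The hormone gene STC2 averaged 7.57 ± 1.06, 6.98 ± 3.02 and 27.8 ± 6.21 CPM (1.99 between the media, adjusted p = 9.5e-05), and the tRNA exporter XPOT 62.1 ± 6.25, 56.2 ± 4.05 and 117 ± 15.5 CPM (1.05, adjusted p = 1.31e-05). For both genes DMEM/F12 was not called against fresh cells (adjusted p = 0.729 and 0.237), and incubation medium was called higher (adjusted p = 1.91e-05 and 2.7e-06).

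**Figure D5:**
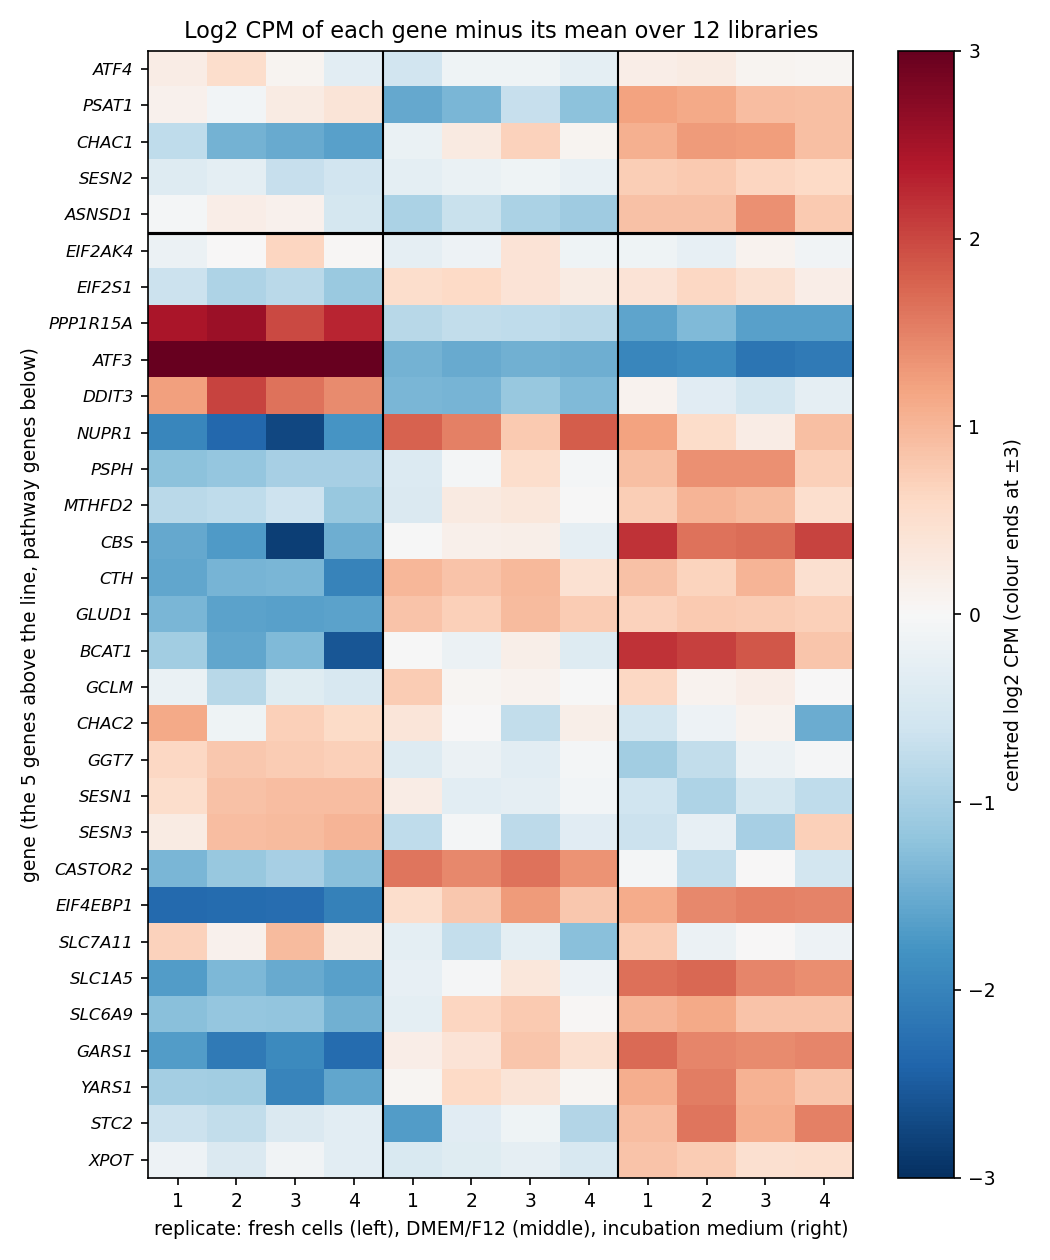
Log2 CPM of each gene (rows) minus its own mean over the 12 libraries (columns: replicates 1 to 4 of fresh cells, DMEM/F12 spheroids and incubation medium spheroids, from left to right), with the 5 members above the black line and the named pathway genes below it. Red is above and blue below the gene's mean, and colours end at ±3. PPP1R15A, ATF3 and DDIT3 are red in fresh cells, and CASTOR2 and NUPR1 are reddest in DMEM/F12. PSAT1, CHAC1, SESN2 and ASNSD1 with CBS, BCAT1, SLC1A5 and GARS1 are red in incubation medium. ATF4 is only faintly red there, at 0.07 to 0.24, and is redder in fresh cell replicate 2, at 0.54.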

How the data were processed

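The deposited table gives an expected count for every gene row in each library, where 19.1 to 20.5% of nonzero values were not whole, and CPM, so named per the file headers, each equal to the count over the library total to within 5e-06. The submitters' processing notes name fastp 0.24.0, STAR 2.7.11, SAMtools 1.22.1 and featureCounts (Subread 2.1.1), with no roles or settings. Genome build, annotation, strand setting and use of molecular identifiers are not given in the sources used here, and 0 row identifiers matched the reference tables, so no positions are given. Promoters and proteins were not analysed here.

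Counts were rounded, and 92 spike-in rows were left out. Groups were compared with edgeR 4.0.16 under R 4.3.3 (filterByExpr, TMM, quasi-likelihood F-tests, 1 fit of 12 libraries with a mean per group, Benjamini-Hochberg over 14070 genes, called under 0.05). The fit was also run on simulated counts with 200 changed genes, a far smaller share than was called against fresh cells here. That run therefore does not cover scaling or error rates where most genes change. The table gives a symbol for 13259 gene rows and none for 17202, and list genes were matched by exact symbol. Printed CPM are rounded counts over TMM-scaled library sizes, and log2 CPM used a prior count of 2. The SE of a log2 fold change came from its F statistic. Counting error alone limits genes with few counts, and amplified reads are not independent molecules. Library totals were higher in each medium than in fresh cells (two-sided exact permutation p = 0.0286 for each, the smallest possible) and did not separate the media (p = 0.4286). No pair of libraries of a group agreed within counting noise (chi-square over its degrees of freedom 5.61 to 16.1).

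Every library correlated best with the same replicate number of another group in its deviations from the group mean (12 of 12 pairs, r across genes 0.196 to 0.516), so by this check from the data, not from the labels, the numbers pair the libraries. Unless a setting is named, the printed SEs, adjusted p-values and calls come from the fit without a replicate block.

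Members and lists were chosen with earlier results of these data known. Named pathway genes are 16 fixed symbols, of which 10 were tested, and in each list the 2 called against fresh cells with the largest mean change and at least 10 CPM. Named neighbours are the 3 genes nearest in pattern to each member.

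Alternatives were library totals or DESeq2 size factors in place of TMM, the DESeq2 1.42.0 test, no filter on low counts, a mean of at least 10 counts, only genes with whole counts, only the 8 libraries compared, replicate number as a block, and each library left out in turn.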

Additional observations from a re-analysis of the deposited data

Results flagged for a closer look

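For PSAT1 and ASNSD1 every DMEM/F12 library lay below, and every incubation medium library above, all fresh cell libraries. The log2 fold changes against fresh cells were -1.36 and 0.86 for PSAT1 and -0.91 and 1.06 for ASNSD1, and the media differed by 2.23 and 1.98. This difference was not tested, since the genes were chosen with it known.

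In 10 of 93 groups of 4 libraries, over 31 genes, 1 library stood far from the other 3. Chance would give about 5% if the groups were independent. They are not, since the genes share the same libraries, so these 10 measure no excess over chance. Among the members, incubation medium replicate 3 stood apart for ASNSD1, at 18.2 CPM where the others had 12.1 to 12.8. Fresh cell replicate 1 stood apart for SESN1 (12.2 CPM, others 15.6 to 16.1), SESN3 (67.0, others 107 to 115) and GLUD1 (144, others 121 to 124). Fresh cell replicate 2 did so for ATF3 (4393, others 2782 to 3001) and replicate 4 for EIF4EBP1 (23.5, others 18.8 to 19.5). DMEM/F12 replicate 1 did so for GCLM (36.4, others 21.1 to 23.0). Incubation medium replicate 1 did so for SLC7A11 (29.9, others 15.3 to 17.6) and GARS1 (375, others 309 to 317), and replicate 2 for PPP1R15A (109, others 87.7 to 90.8).

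The 92 spike-in rows together held 20 to 35 counts in each library, above the limit of 3 counts that a count of 0 allows. No label mentions a spike-in, and the source of these counts was not tested.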

How the results depend on the processing

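The differences of the 5 members kept their direction under the scaling, filter, tool, block and single-library alternatives, except ATF4 in incubation medium against fresh cells (-0.01). That value was 0.0466 without the filter on low counts, 0.0065 with the replicate block, 0.0748 with only whole counts, and -0.14 to 0.14 without single libraries. PSAT1 and ASNSD1 had no value with only whole counts, which dropped them. With only whole counts the fit held 5935 genes, and the calls fell with it to 4180 (2101 higher, 2079 lower) in DMEM/F12 against fresh cells, 4256 (2137 and 2119) in incubation medium against fresh cells and 1341 (676 and 665) between the media. Pathway genes called were then 18 (15 and 3), 20 (17 and 3) and 11 (11 and 0) of 26.

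With library totals in place of TMM the share of calls that were higher between the media was 33.4%, where TMM gave 50.9%. The pathway genes called were then 31 higher and 10 lower, beside 1239 higher and 2471 lower over all tested genes. The replicate block gave 38 higher and 10 lower pathway genes between the media. Against fresh cells it gave 38 and 24 in DMEM/F12 and 47 and 27 in incubation medium. Calls over all tested genes also rose with the block, from 3522 to 4613 between the media (2329 higher, 2284 lower). They rose from 9951 to 10471 in DMEM/F12 and from 10085 to 10590 in incubation medium against fresh cells. For the named genes the block changed the calls of EIF2AK4 and SLC7A11 in incubation medium against fresh cells.

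Without single libraries, some small differences that were not called changed sign. In DMEM/F12 against fresh cells EIF2AK4 ran from -0.323 to 0.0357 and STC2 from -0.320 to 0.134. Between the media EIF2AK4 ran from -0.153 to 0.0911, EIF2S1 from -0.0930 to 0.0495, CTH from -0.167 to 0.0306, GCLM from -0.160 to 0.201 and SESN3 from -0.145 to 0.511. Adding ASNSD1 to its partner row was chosen after seeing the data. Few counts limit the precision for CHAC2, for CBS in fresh cells and for ASNSD1, which had 24 to 147.5 counts per library.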
